A study of Mus musculus with 6 samples.

Results

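Apoe and 9 genes of cellular cholesterol export, ester storage and lysosomal sterol release were followed in bulk RNA sequencing of flow-sorted microglia, the macrophages that reside in the brain, from 3XTg-AD mice. The genes were picked by symbol (Apoe, Abca1, Abcg1, Nr1h3, Nr1h2, Ch25h, Soat1, Lipa, Npc1 and Npc2), and all 10 were found among the 24956 gene rows of the deposited count table. They were picked with earlier results of these 6 libraries known, so their differences between the groups are described here without a test. In the anti-NK1.1 group, 3 libraries came from mice given 25 µg of an antibody against NK1.1, a receptor on natural killer (NK) cells, every 4 days for 4 weeks to deplete those cells. The isotype group is 3 libraries from mice that received the isotype control on the same schedule. Every animal of both groups was 7 months old and of the 3XTg-AD strain, a mouse model of Alzheimer's disease whose transgenes include human APP and MAPT, so there is no group without the disease model. The labels do not say whether a library came from 1 mouse or from a pool, and the spread between libraries may therefore be partly technical.

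Apolipoprotein E is the main lipid carrier made by glia in the brain, and its transcript is one of those that mark microglia around amyloid plaques. Cholesterol that a microglial cell takes up, for example with myelin debris, is freed from its esters in the lysosome by the lipase Lipa and handed on by Npc2 and Npc1. It is then either stored as esters by Soat1 or exported onto lipoproteins by the transporters Abca1 and Abcg1. The nuclear receptors LXRα (Nr1h3) and LXRβ (Nr1h2) bind oxysterols, such as the 25-hydroxycholesterol made by Ch25h, and switch on Apoe, Abca1 and Abcg1.

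The promoter windows of Apoe and Abca1 are shown because these 2 genes gave the clearest and the most uneven pattern among the 10. Each window is the RefSeq sequence (GRCm38.p6) of 250 bases before and 50 bases from the transcription start, 5′ to 3′ on the gene's own strand, at chr7:19699139-19699438 (minus strand) for Apoe and chr4:53159846-53160145 (minus strand) for Abca1. Capitals mark matches to 2 motifs searched on both strands. One is an LXR-type direct repeat (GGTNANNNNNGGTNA), and the other is the E-box CACGTG. The motifs do not overlap each other.
Apoe: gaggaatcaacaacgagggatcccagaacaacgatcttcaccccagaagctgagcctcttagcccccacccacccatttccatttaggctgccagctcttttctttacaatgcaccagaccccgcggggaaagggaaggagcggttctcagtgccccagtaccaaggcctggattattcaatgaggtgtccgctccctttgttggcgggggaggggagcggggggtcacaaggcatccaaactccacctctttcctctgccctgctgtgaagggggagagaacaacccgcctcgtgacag
Abca1: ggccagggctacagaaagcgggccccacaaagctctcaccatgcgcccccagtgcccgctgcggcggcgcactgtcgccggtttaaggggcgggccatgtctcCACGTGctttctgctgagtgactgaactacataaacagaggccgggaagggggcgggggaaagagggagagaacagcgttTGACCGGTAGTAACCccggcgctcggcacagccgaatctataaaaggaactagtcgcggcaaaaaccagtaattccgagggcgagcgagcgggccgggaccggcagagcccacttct
The Abca1 window held 1 match to the direct repeat, on its minus strand at -67 to -53 from the start, and 1 E-box at -147 to -142. RefSeq windows were found for 8 of the 10 genes, 11 windows in all, and Abca1 was the only 1 of the 8 with a match to either motif. Over all 32851 windows of the same length, 0.718% held the direct repeat and 7.15% held the E-box. A match is a description of letters, and no match says only that these letters are not in the window.

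Gene counts totalled 26.9 to 31.4 M in anti-NK1.1 libraries and 31.9 to 36.1 M in isotype libraries. Values per library are CPM, read counts relative to the library total after edgeR's TMM scaling. Microglial markers were abundant, and all 14 had counts in every library. P2ry12 had 2683 to 4384 CPM in anti-NK1.1 libraries and 4557 to 5058 CPM in isotype libraries. Tmem119 had 2732 to 3473 CPM in anti-NK1.1 libraries and 1649 to 2771 CPM in isotype libraries. Klrb1c, which encodes NK1.1, had 0, 0 and 0.518 CPM in anti-NK1.1 libraries against 1.39, 1.4 and 2.09 CPM in isotype libraries. Transcripts of other cells were also present: Ttr, the leading transcript of choroid plexus epithelium, had 22185 to 39143 CPM in anti-NK1.1 libraries and 6454 to 23845 CPM in isotype libraries, and the neutrophil gene S100a8 had 10784 to 48927 CPM in anti-NK1.1 libraries and 22990.1 to 37936 CPM in isotype libraries. In the edgeR quasi-likelihood test over 14520 genes, 0 genes (0%) had a Benjamini-Hochberg adjusted p under 0.05, while 398 higher and 552 lower genes had an unadjusted p under 0.05, and DESeq2 called 83 genes. Without anti-NK1.1 2, edgeR called 129 of 14990 tested genes. In bulk RNA, fewer cells of a type and less RNA per cell cannot be told apart.

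Apoe (chromosome 7, 19696109 to 19699188, GRCm38, minus strand), the lipid carrier, was above all isotype libraries in each of the 3 anti-NK1.1 libraries. It had 4530.4, 3513 and 3419.8 CPM in anti-NK1.1 libraries 1 to 3, against 1601, 1797 and 1111 CPM in isotype libraries 1 to 3. The groups did not overlap, and the lowest anti-NK1.1 library was 1.9 times the highest isotype library. The group means were 3821 ± 616 CPM and 1503 ± 354 CPM (SD, n = 3 each), a log2 change of 1.35 ± 0.24 (SE) and a fold of 2.54. It was the only 1 of the 10 genes whose groups did not overlap, while among all tested genes 7.73% were without overlap and higher with anti-NK1.1, 7.59% without overlap and lower, and 15.3% either way. Nothing is read from that count, since the genes were picked with this comparison known. Apoe took 0.448%, 0.384% and 0.295% of all gene counts in anti-NK1.1 libraries 1 to 3, against 0.159%, 0.182% and 0.118% in isotype libraries 1 to 3. With each library corrected for the trend of its counts on transcript length and GC content, the log2 change of Apoe was 0.82 ± 0.22. With the trend taken from genes of at least 10 CPM, a setting chosen after the data were seen, it was 0.98 ± 0.2.

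**Figure D1:**
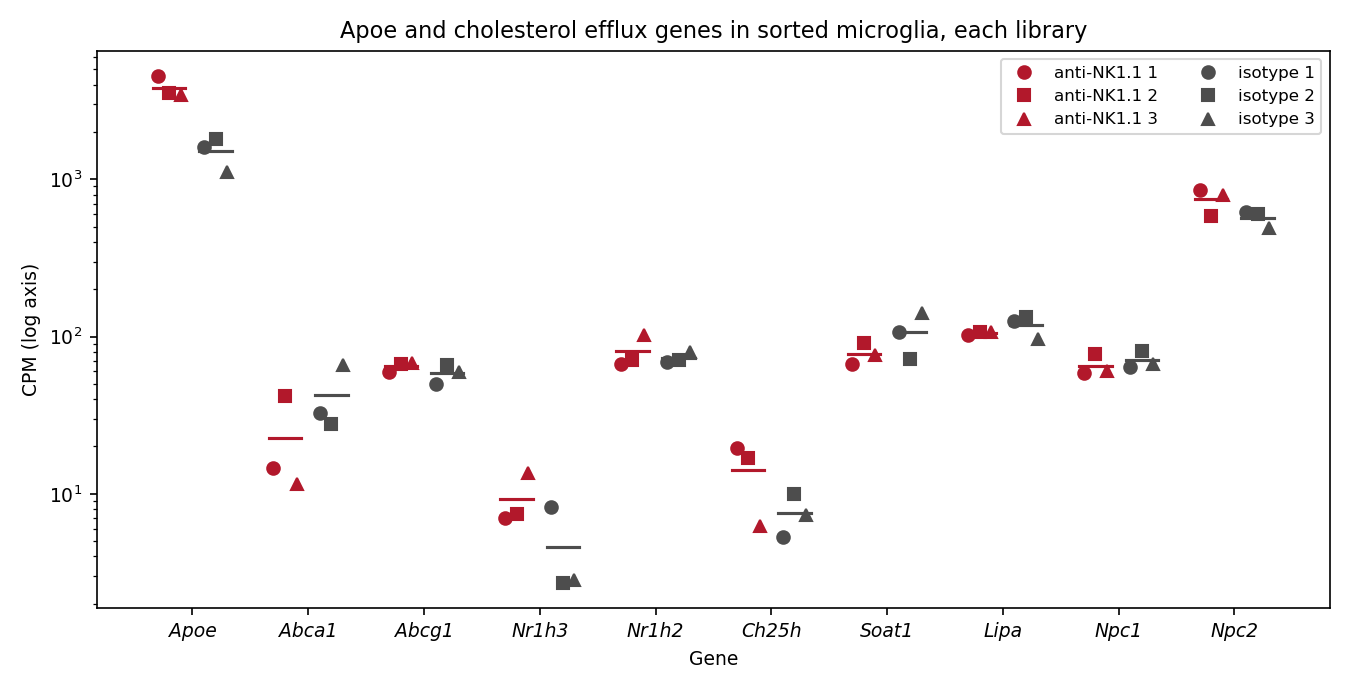
CPM (log axis) of each of the 10 genes in every library, with anti-NK1.1 libraries in red left of isotype libraries in grey and bars at the group means. Apoe is the one gene whose groups are apart, at 3419.8 to 4530.4 CPM in anti-NK1.1 libraries and 1111 to 1797 CPM in isotype libraries.

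Neither of the 2 sterol exporters was separated between the groups as Apoe was. Abca1 (chromosome 4, 53030787 to 53159895, minus strand), which loads cholesterol and phospholipid onto lipid-poor apolipoproteins, had 14.5, 41.7 and 11.6 CPM in anti-NK1.1 libraries 1 to 3, against 32.5, 27.8 and 66.4 CPM in isotype libraries 1 to 3. Anti-NK1.1 libraries 1 and 3 were below all isotype libraries, anti-NK1.1 2 lay inside the isotype range, and the groups overlapped. Within the anti-NK1.1 group, library 2 was 2.87 times library 1 and 3.6 times library 3. The group means were 22.6 ± 16.6 CPM and 42.3 ± 21.1 CPM (SD, n = 3 each), and the log2 change was -0.9 ± 0.54. Leaving out anti-NK1.1 2 moved it to -1.7, and leaving out isotype 3 to -0.42. Anti-NK1.1 2 alone against the isotype libraries gave -0.02.

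Abcg1 (chromosome 17, 31057675 to 31117988, plus strand), which exports sterol to more mature lipoprotein particles, was at almost one level. It had 59.1, 66.9 and 68 CPM in anti-NK1.1 libraries 1 to 3, against 49.7, 65.6 and 59.8 CPM in isotype libraries 1 to 3. Its groups overlapped, with a log2 change of 0.15 ± 0.24, and its highest library was 1.37 times its lowest. Counts of Abca1 per count of Abcg1, a ratio inside each library that needs no scaling, were 0.246, 0.624 and 0.171 in anti-NK1.1 libraries and 0.655, 0.424 and 1.11 in isotype libraries. Counts of Apoe per count of Abca1 were 312, 84.2 and 295 in anti-NK1.1 libraries and 49.2, 64.5 and 16.7 in isotype libraries. The Apoe to Abca1 ratios of the anti-NK1.1 group all lay above those of the isotype group, with anti-NK1.1 2 the nearest to them. Since Apoe alone already separated the groups, this ratio reuses the same counts and is no further result. It also sets the 1408 nt transcript of Apoe against the 10262 nt transcript of Abca1. The part of transcript length in this ratio was not tested.

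Of the 2 LXR genes, neither was without overlap. Nr1h2 (chromosome 7, 44549616 to 44553951, minus strand), which encodes LXRβ, had 66.9, 71.3 and 103 CPM in anti-NK1.1 libraries 1 to 3, against 69.3, 70.8 and 79.8 CPM in isotype libraries 1 to 3. Only anti-NK1.1 3 was above the isotype range, and the log2 change was 0.13 ± 0.25. With the length and GC correction the value was -0.39. Nr1h3 (chromosome 2, 91184061 to 91202834, minus strand), which encodes LXRα, had 7.04, 7.39 and 13.5 CPM in anti-NK1.1 libraries 1 to 3, against 8.23, 2.73 and 2.85 CPM in isotype libraries 1 to 3. Isotype 1 lay among the anti-NK1.1 libraries, and the other two isotype libraries were lowest. Its log2 change was 1.01 ± 0.64, it was 1.75 without isotype 1 and 0.65 without anti-NK1.1 3, and it rested on 187 to 338 counts in anti-NK1.1 libraries and 88 to 295 counts in isotype libraries. Nr1h2 had 7.65 to 9.65 counts per count of Nr1h3 in anti-NK1.1 libraries and 8.42 to 28 in isotype libraries, and the ratio of the 3 anti-NK1.1 libraries was close to that of isotype 1.

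Ch25h (chromosome 19, 34473778 to 34475164, minus strand), the enzyme that makes 25-hydroxycholesterol and a gene that macrophages induce with interferon, was uneven in the anti-NK1.1 group. It had 19.5, 17 and 6.22 CPM in anti-NK1.1 libraries 1 to 3, against 5.33, 9.92 and 7.32 CPM in isotype libraries 1 to 3. Anti-NK1.1 1 and 2 were above all isotype libraries, anti-NK1.1 3 lay within their range, and the log2 change was 0.92 ± 0.54. The value without anti-NK1.1 3 was 1.28, and without any other single library it was 0.63 or more.

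Soat1 (chromosome 1, 156424525 to 156474331, minus strand), which esterifies cholesterol for storage in droplets, had 66.6, 90.6 and 76.4 CPM in anti-NK1.1 libraries 1 to 3, against 107, 71.5 and 142 CPM in isotype libraries 1 to 3. Isotype 1 and 3 were above all anti-NK1.1 libraries, isotype 2 was not, and the log2 change was -0.46 ± 0.29. Without isotype 3 it was -0.2, and with the length and GC trend taken from genes of at least 10 CPM its sign turned, at 0.15. Lipa (chromosome 19, 34492318 to 34527474, minus strand), the acid lipase that undoes this step in the lysosome, had 103, 107 and 107 CPM in anti-NK1.1 libraries 1 to 3, against 126, 134 and 97 CPM in isotype libraries 1 to 3. The anti-NK1.1 libraries lay inside the isotype range, with a log2 change of -0.17 ± 0.22 that turned to 0.1 with the length and GC correction.

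Npc1 (chromosome 18, 12189692 to 12236400, minus strand), the membrane protein through which cholesterol leaves the lysosome, had 58.3, 77.2 and 60.6 CPM in anti-NK1.1 libraries 1 to 3, against 64.1, 81 and 66.6 CPM in isotype libraries 1 to 3. Its groups overlapped, and the log2 change was -0.11 ± 0.24, with values of 0.02 and 0.35 under the length and GC corrections. Npc2 (chromosome 12, 84754562 to 84773152, minus strand), the soluble protein that hands cholesterol to Npc1, had 858, 586 and 789 CPM in anti-NK1.1 libraries 1 to 3, against 615, 605 and 487 CPM in isotype libraries 1 to 3. Anti-NK1.1 1 and 3 were above all isotype libraries and anti-NK1.1 2 was not, with a log2 change of 0.39 ± 0.22. Anti-NK1.1 2 alone against the isotype libraries gave 0.05. Apoe had 4.33 to 5.99 counts per count of Npc2 in anti-NK1.1 libraries and 2.28 to 2.97 in isotype libraries. This ratio is made of the same counts of the 2 genes and adds no separate result.

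Of the 10 genes, 6 had a log2 change above 0 and 4 below, with a median of 0.14, while the median over all tested genes was 0.015. All 10 genes passed the filter on low counts.

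**Figure D2:**
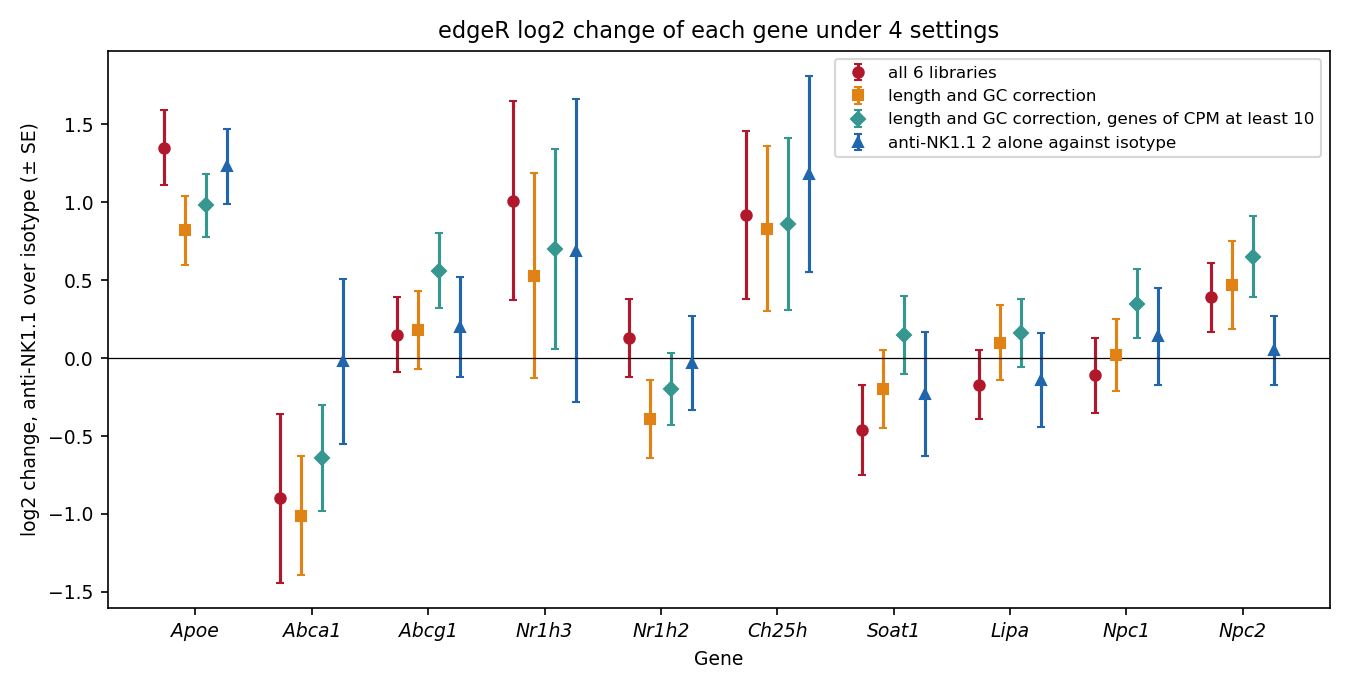
The edgeR log2 change (anti-NK1.1 over isotype, ± SE) of each gene with all 6 libraries (red), with 2 corrections for transcript length and GC content (orange and green), and with anti-NK1.1 2 alone against the isotype libraries (blue). Apoe stays between 0.82 and 1.35 in the 4 settings, while Abca1 is -0.9 with all libraries and -0.02 with anti-NK1.1 2 alone.

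To compare levels between genes, CPM were divided by the length of the principal GENCODE transcript in kb. Apoe was the highest in both groups, at 2714 CPM per kb (2429 to 3218) in anti-NK1.1 and 1067 CPM per kb (789 to 1276) in isotype libraries, and its range was clear of that of Npc2 in each. Npc2 came next, at 226 CPM per kb in anti-NK1.1 and 172 CPM per kb in isotype libraries, again clear of its lower neighbour. Nr1h2 (40.2 CPM per kb in anti-NK1.1, 36.7 in isotype) and Lipa (35.6 in anti-NK1.1, 40.1 in isotype) followed, with ranges that overlapped each other. Both were clear of Npc1, at 12.5 CPM per kb in anti-NK1.1 and 13.5 in isotype libraries, which overlapped its own lower neighbour, Abcg1 in anti-NK1.1 and Soat1 in isotype libraries. Abcg1 was at 11.1 CPM per kb in anti-NK1.1 and 10 in isotype libraries, and Soat1 at 9.3 in anti-NK1.1 and 12.8 in isotype libraries. Ch25h was at 10.3 CPM per kb in anti-NK1.1 libraries, between Abcg1 and Soat1 and overlapping both, and at 5.42 in isotype libraries, below both. Nr1h3 and Abca1 were lowest, at 4.76 and 2.2 CPM per kb in anti-NK1.1 and 2.35 and 4.12 in isotype libraries, and overlapped each other in both groups. In anti-NK1.1 libraries Ch25h, with 4.48 to 14.1 CPM per kb, also overlapped Npc1 (11.2 to 14.8) and Nr1h3 (3.6 to 6.89). In isotype libraries Ch25h, with 3.84 to 7.15 CPM per kb, overlapped Abca1 (2.71 to 6.47) and Nr1h3 (1.4 to 4.21). Soat1 also has a shorter annotated coding transcript, so its level per kb depends on the transcript chosen.

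The libraries differed in how well long transcripts were represented, and Abca1, which has the longest transcript of the 10, moved with that. Among the 8252 tested genes of at least 10 CPM with a known length, genes of 4000 to 8000 nt had a median log2 CPM, relative to the mean of the 6 libraries, of -0.4, 0.24 and -0.44 in anti-NK1.1 libraries 1 to 3, against 0.14, 0.17 and 0.44 in isotype libraries 1 to 3. Genes over 8000 nt, the class of Abca1, had medians of -0.21, 0.29 and -0.47 in anti-NK1.1 libraries 1 to 3. In isotype libraries 1 to 3 these medians were 0.2, -0.04 and 0.43. Abca1, whose transcript has 10262 nt, had -0.91, 0.61 and -1.24 in anti-NK1.1 libraries 1 to 3 on the same scale, against 0.25, 0.02 and 1.28 in isotype libraries 1 to 3. It was thus lowest in the libraries poor in long transcripts and highest in those rich in them, anti-NK1.1 2 and isotype 3. Genes over 8000 nt had a median log2 change of -0.33. The log2 change of Abca1 was -0.9 ± 0.54 without correction and -1.01 ± 0.38 with the length and GC correction, which thus did not shrink it. With the trend taken from genes of at least 10 CPM the value was -0.64 ± 0.34. Soat1 (8371 nt) was likewise highest in isotype 3, at 0.67. For Apoe (1408 nt) the pattern was another: it had 0.94, 0.57 and 0.53 in anti-NK1.1 libraries 1 to 3, against -0.56, -0.39 and -1.09 in isotype libraries 1 to 3, while genes of 1000 to 2000 nt had medians of 0.17, -0.12 and 0.26 in anti-NK1.1 libraries and 0.02, 0.01 and -0.24 in isotype libraries. In anti-NK1.1 2, the one anti-NK1.1 library rich in long transcripts, Apoe and Abca1 were both above their means, and that library alone against the isotype group gave a log2 change of 1.23 for Apoe. With the length and GC correction the value for Apoe over all 6 libraries was 0.82, against 1.35 without it. That correction takes length and GC content together, and the Apoe transcript has 59.52% GC. Among the other genes of the 10 under 2000 nt, Ch25h (49.96% GC) went from 0.92 to 0.83 with it. Nr1h3 (57.65% GC) went from 1.01 to 0.53, and Nr1h2 (60.58% GC) from 0.13 to -0.39. The separate parts of transcript length and of GC content in these values were not tested, nor was any part beyond that correction.

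**Figure D3:**
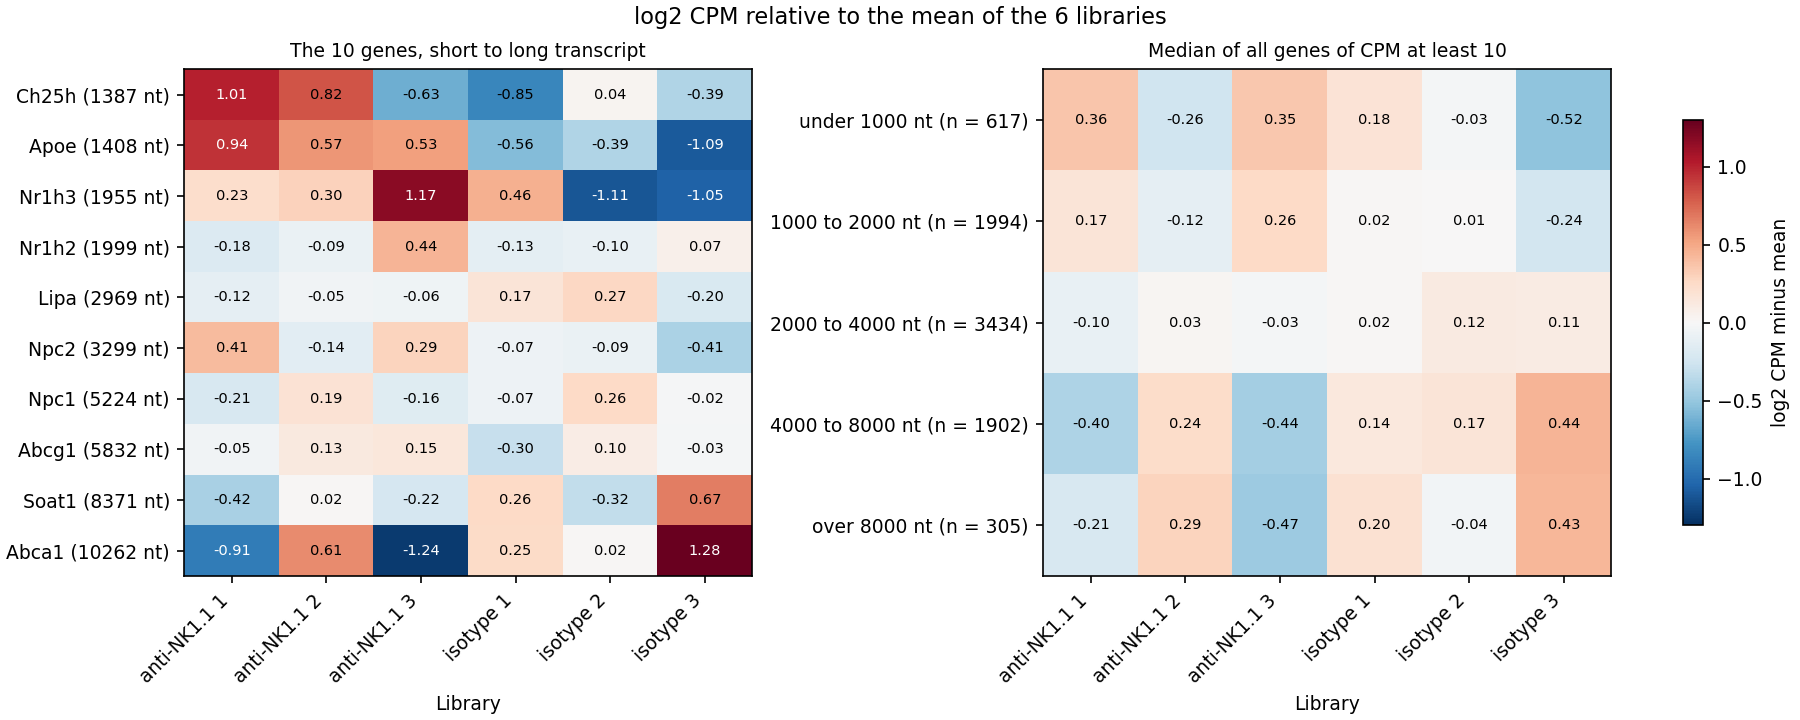
log2 CPM minus the mean of the 6 libraries, for the 10 genes from the shortest to the longest transcript (left) and as the median of all genes of at least 10 CPM in 5 length classes (right). Abca1 runs from -1.24 to 1.28 with the same libraries low and high as the classes of long transcripts, while Apoe is positive in the 3 anti-NK1.1 libraries and negative in the 3 isotype libraries.

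Other cells of the brain and its borders also make Apoe, astrocytes and border-associated macrophages above all, so their markers are given beside it. The summed level of 11 border macrophage markers was 298, 243 and 185 CPM in anti-NK1.1 libraries 1 to 3, against 110, 130 and 174 CPM in isotype libraries 1 to 3. It ran higher in every anti-NK1.1 library, as Apoe did, and 5 of the 11 genes were higher in every anti-NK1.1 library (7.73% of all tested genes were). The list's median log2 change was 1.07, with 10 of 11 genes higher. Cd163 was at 0 in anti-NK1.1 1 and 3. Pf4 had 89.9, 55 and 41.5 CPM in the anti-NK1.1 libraries and 27, 18.3 and 26.9 CPM in isotype libraries, whereas Mrc1 had 8.43, 22.4 and 3.91 CPM in the anti-NK1.1 libraries and 7.76, 5.05 and 34.4 CPM in isotype libraries. The 12 astrocyte markers summed to 234, 340 and 197 CPM in the anti-NK1.1 libraries and 168, 203 and 240 CPM in isotype libraries, with overlapping groups. Of these, 9 of 12 had a log2 change above 0, with a median of 0.57, and 2 were higher in every anti-NK1.1 library. Aqp4 had 1.91 to 4.09 CPM in anti-NK1.1 libraries and 0.363 to 10.8 CPM in isotype libraries, and Gfap was at 0 in isotype 2. The part of these cells in the Apoe level was not tested.

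The 9 choroid plexus markers, led by Ttr, summed to 42825, 38670.3 and 24229 CPM in anti-NK1.1 libraries 1 to 3 and 28670.1, 28141 and 8219 CPM in isotype libraries 1 to 3. The group means of that sum differed by 13565 CPM, and 8 of its 9 genes had a log2 change above 0 (median 0.32), each overlapping between the groups. Isotype 3 was lowest and anti-NK1.1 1 highest both for this sum and for Apoe. Anti-NK1.1 3 had less choroid plexus signal than isotype 1 and 2, and its Apoe was above both. The part of choroid plexus cells in the Apoe level was not tested. The 14 microglial markers summed to 30852 to 39226 CPM in anti-NK1.1 libraries and 34804 to 39248 CPM in isotype libraries. Of these 14, 5 had a log2 change above 0 and 9 below, with a median of -0.19. Every anti-NK1.1 library was higher for 1 of them and lower for 2 (7.73% and 7.59% over all tested genes). Marker sums of oligodendrocytes, neurons, vessels and T and B cells were also higher in every anti-NK1.1 library. They were 767 to 909 CPM with anti-NK1.1 and 308 to 415 CPM in isotype libraries for 11 oligodendrocyte genes, and 114 to 150.3 CPM with anti-NK1.1 and 61.1 to 103 CPM in isotype libraries for 9 T and B cell genes. For 11 neuronal genes they were 209 to 609.6 CPM with anti-NK1.1 and 44.8 to 160.3 CPM in isotype libraries, and for 10 vascular genes 113 to 230.5 CPM with anti-NK1.1 and 75.1 to 95.2 CPM in isotype libraries. The sum of 10 NK cell genes was lower in every anti-NK1.1 library, at 42.6 to 76.8 CPM with anti-NK1.1 and 91.1 to 133 CPM in isotype libraries.

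The marker sums of neutrophils and monocytes split the anti-NK1.1 group. The 11 neutrophil markers summed to 30707, 31439 and 136013 CPM in anti-NK1.1 libraries 1 to 3, against 98130, 76865 and 70259.9 CPM in isotype libraries 1 to 3, and all 11 had a log2 change below 0, with a median of -0.34. The 7 monocyte markers summed to 1342, 1776 and 5452 CPM in anti-NK1.1 libraries 1 to 3, against 4749, 4178 and 4306 CPM in isotype libraries 1 to 3. Of these 7 genes, 5 had a log2 change below 0, with a median of -0.63. Single genes lower in every anti-NK1.1 library were 3 of the 7 monocyte and 2 of the 11 neutrophil markers (7.59% over all tested genes). For both sums, anti-NK1.1 1 and 2 were below and anti-NK1.1 3 above every isotype library. Within the anti-NK1.1 group, Nr1h2 and Nr1h3 were likewise highest and Ch25h lowest in library 3. The part of these cells in the values of the 10 genes was not tested.

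**Figure D4:**
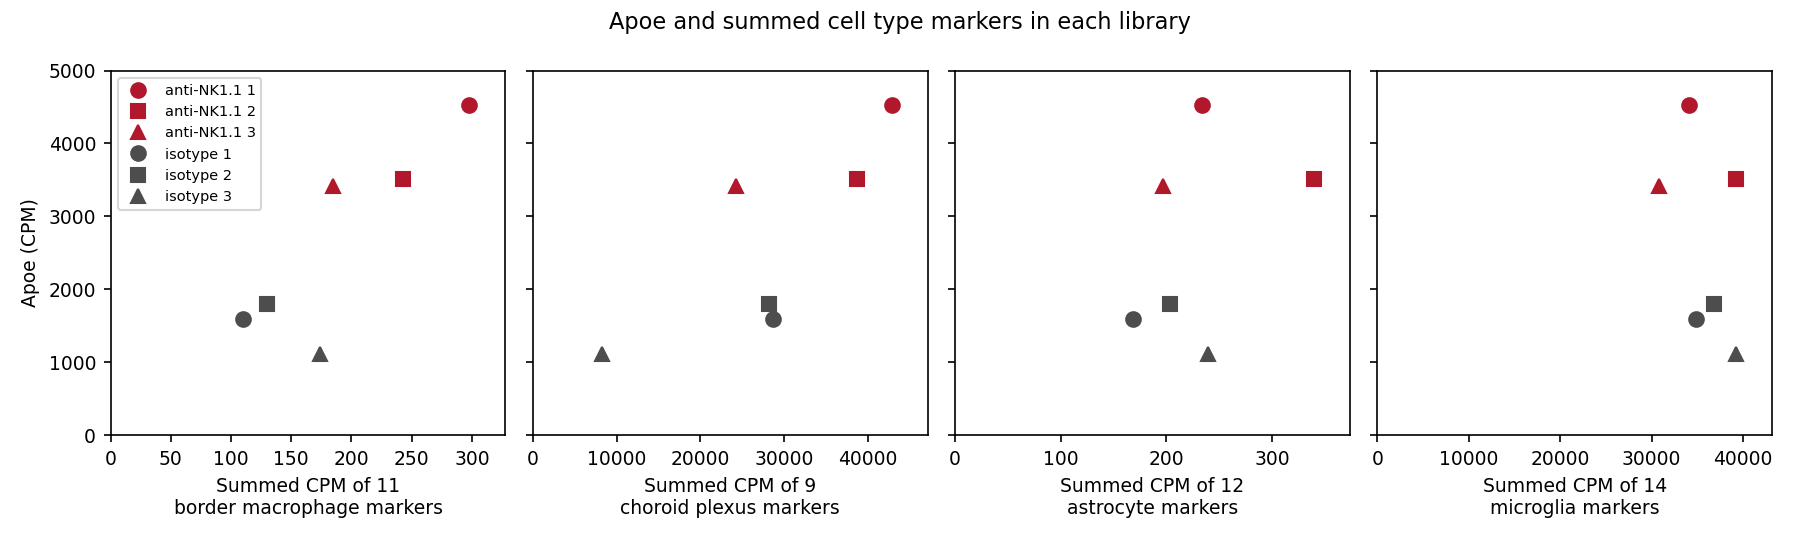
Apoe (CPM) against the summed CPM of markers of border macrophages, choroid plexus, astrocytes and microglia, 1 point per library, anti-NK1.1 in red and isotype in grey. The border macrophage sum is 185 to 298 CPM with anti-NK1.1 and 110 to 174 CPM in isotype libraries, while the astrocyte and microglial sums overlap between the groups.

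The wider pathway was read in 9 further lists of genes, 127 symbols in all without the 10 members. Of these, 126 were in the table and 108 passed the filter on low counts. None of the 108 passed edgeR's threshold over all genes (0%, as for all tested genes). An unadjusted p under 0.05 was found for 9 of the 108 and for 950 of all 14520 tested genes. DESeq2 called 1 of the 108, Apod, and 83 of the 14520. Without anti-NK1.1 2, edgeR called 5 of 110 tested pathway genes and 129 of all 14990 tested genes. Of the 108, 54 were higher and 54 lower, with a median log2 change of 0.01. In 9 genes every anti-NK1.1 library was higher and in another 9 every one was lower, out of 108 each (7.73% and 7.59% over all tested genes).

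Lipoprotein components and the enzymes that remodel them had a median log2 change of 0.67, with 8 of 10 tested genes higher. Apod, a lipocalin that is also found in lipoproteins and in myelinating glia, had 64.7, 54.1 and 54.6 CPM in anti-NK1.1 libraries 1 to 3, against 10.2, 16.7 and 12.9 CPM in isotype libraries 1 to 3, with no overlap. Its log2 change was 2.12 ± 0.31, with an edgeR adjusted p of 0.296 and a DESeq2 adjusted p of 6.72e-07. Pltp, which moves phospholipid between lipoproteins and is an LXR target, had 315 ± 76.7 CPM with anti-NK1.1 and 202 ± 61.7 CPM in isotype libraries (SD, n = 3 each), with a log2 change of 0.65 ± 0.29 (edgeR adjusted p = 0.743). Clu, another brain apolipoprotein, named after its values were seen, had a log2 change of 0.7 ± 0.43 with overlapping groups. Clu was lowest in isotype 3, at 207 CPM, the library lowest in choroid plexus transcripts. It was highest in anti-NK1.1 2, at 1049.6 CPM, whereas the choroid plexus sum was highest in anti-NK1.1 1. The part of choroid plexus cells in the Clu level was not tested.

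The genes beside Apoe on chromosome 7 had a median log2 change of 0.48, and all 8 tested were higher. With the length and GC correction the median was 0.13, and with anti-NK1.1 2 alone it was 0.11. Nectin2, an adhesion molecule, had 58.5, 55.2 and 49.5 CPM in anti-NK1.1 libraries 1 to 3, against 35.8, 41.4 and 32.8 CPM in isotype libraries 1 to 3, a log2 change of 0.57 ± 0.25 without overlap (edgeR adjusted p = 0.743). Tomm40, a mitochondrial import pore next to Apoe, had 0.38 ± 0.29. The apolipoprotein gene Apoc1, named after its values were seen, had 6.81, 2.86 and 5.82 CPM in the anti-NK1.1 libraries and 6.08, 1.15 and 1.1 CPM in isotype libraries, and overlapped. Apoc4, also named after its values were seen, was under 2 CPM in every library.

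Other known LXR targets had a median log2 change of 0.06, with 7 of 13 tested genes higher. Fasn, fatty acid synthase, was lower in every anti-NK1.1 library, at 5.92 ± 0.725 CPM with anti-NK1.1 and 13.2 ± 1.89 CPM in isotype libraries (SD, n = 3 each), with a log2 change of -1.16 ± 0.45 (edgeR adjusted p = 0.727). Srebf1, Mylip and Lpcat3 were named after their values were seen. Srebf1, the LXR target that drives lipid synthesis, had 0.34 ± 0.41, and Mylip, which sends the LDL receptor for degradation, had -0.4 ± 0.28. Lpcat3, which remodels phospholipids, had -0.14 ± 0.22, and each of the 3 overlapped between the groups. Nuclear receptor partners and cofactors had a median of -0.48, with 8 of 14 lower. That median was -0.02 without isotype 2, -0.17 without anti-NK1.1 3 and -0.29 without isotype 3. Rxra, a partner with which LXR pairs on DNA, had a log2 change of -0.35 ± 0.44 and Rxrb 0.62 ± 0.28 (edgeR adjusted p = 0.743). The corepressor Ncor1 had -0.75 ± 0.3, with 40.3 to 49.7 CPM with anti-NK1.1 and 52.6 to 102 CPM in isotype libraries (edgeR adjusted p = 0.727). The transcript of Ncor1 has 9037 nt and that of Fasn 10050 nt, and the part of transcript length in either value was not tested.

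Lipoprotein receptors had a median log2 change of -0.02, with 6 of 13 higher. The scavenger receptor Cd36 had 53 to 76.9 CPM with anti-NK1.1 and 27 to 52.1 CPM in isotype libraries, with a log2 change of 0.82 ± 0.33 (edgeR adjusted p = 0.727), and the sorting receptor Sorl1 had -0.83 ± 0.31 (edgeR adjusted p = 0.727). Other lipid transporters of the ABC family had a median of 0.05, with 6 of 9 higher. Abcg4, a relative of Abcg1 that is found mainly in neurons and glia, had 2.31 to 2.6 CPM with anti-NK1.1 and at most 0.372 CPM in isotype libraries, where isotype 3 had none, while Abca9 had 22.2, 139 and 14.6 CPM in the anti-NK1.1 libraries and 93.9, 102 and 179 CPM in isotype libraries. Abca9, with 6384 nt, thus had the same low libraries as Abca1.

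Genes of lysosomal and intermembrane sterol transport had a median log2 change of -0.19, with 15 of 23 lower, and it was -0.33 without anti-NK1.1 2 and -0.09 without isotype 2. The oxysterol-binding protein relatives Osbpl9 and Osbpl8 had log2 changes of -0.99 ± 0.27 and -1.37 ± 0.49, both without overlap (edgeR adjusted p = 0.727 for both). Oxysterol enzymes and the oxysterol receptor gene Gpr183 had a median of -0.39, with 5 of 7 lower, and it was -0.11 without isotype 3 and -0.13 without isotype 1. Gpr183, whose ligand is made from the product of Ch25h, had 261 to 311 CPM with anti-NK1.1 and 324 to 391 CPM in isotype libraries, with a log2 change of -0.39 ± 0.2 (edgeR adjusted p = 0.743), and Cyp7b1, the next enzyme on that route, had 2.33 ± 1.21 CPM with anti-NK1.1 and 4.51 ± 3.41 CPM in isotype libraries (SD, n = 3 each). Genes of sterol ester and droplet storage had a median of -0.01, with 8 of 17 higher. Pnpla2, which starts the breakdown of droplet triglycerides, and Mgll, which splits monoglycerides, each had 0.5 ± 0.26 and did not overlap between the groups (edgeR adjusted p = 0.743 for both). Plin2, a coat protein of droplets, named after its values were seen, had -0.09 ± 0.26.

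**Figure D5:**
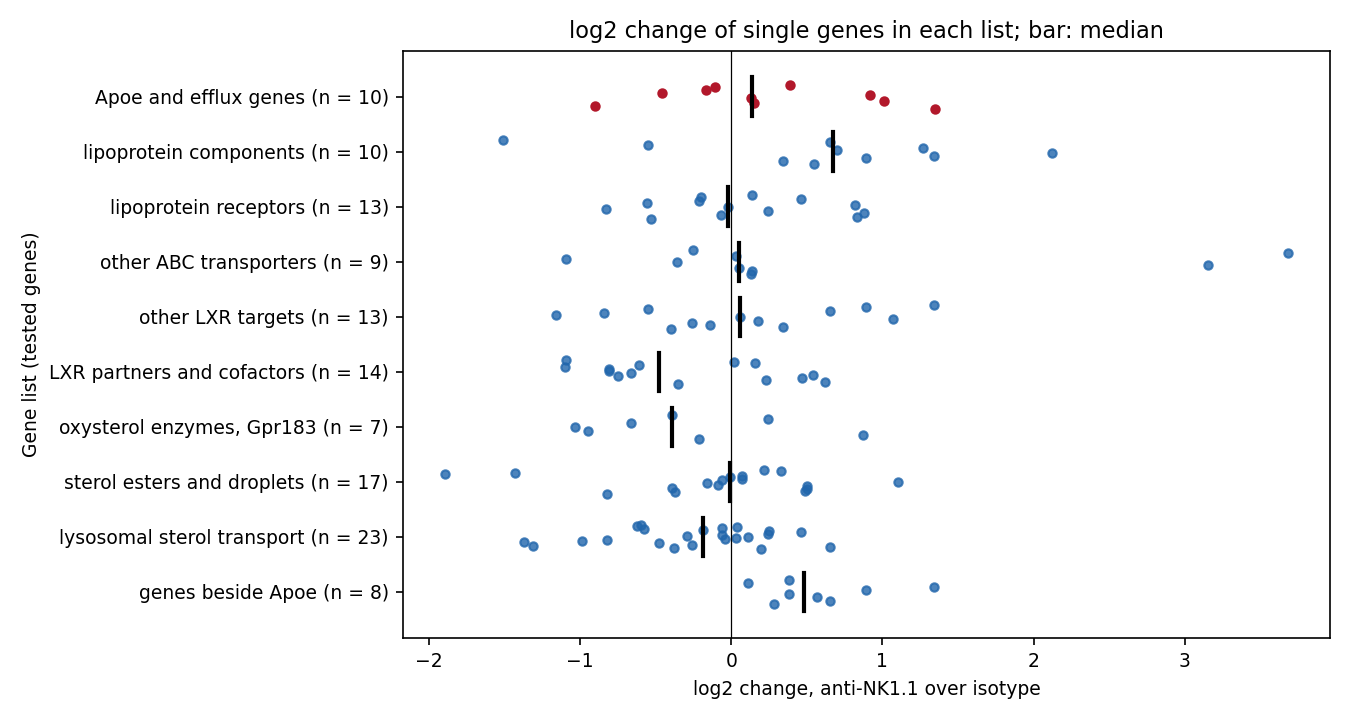
The log2 change (anti-NK1.1 over isotype) of each tested gene in the 10 genes followed here (top, red) and in 9 further lists (blue), with a bar at each median. The medians run from -0.48 for LXR partners to 0.67 for lipoprotein components, and each list holds genes on both sides of 0 except the genes beside Apoe.

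The genes whose pattern over the 6 libraries was most like that of Apoe were found by the root mean square difference of log2 CPM, after subtracting each gene's own mean, among genes of at least 10 CPM. The nearest were Plekhb1 (0.189), the MHC class II chain H2-Eb1 (0.197) and its invariant chain Cd74 (0.209). Cd74 had 4646 ± 742 CPM with anti-NK1.1 and 1837 ± 71.8 CPM in isotype libraries (SD, n = 3 each). For Abca1 the nearest were Tanc2 (0.084), Itgav (0.158) and Kbtbd7 (0.167), whose transcripts have 11855, 7054 and 4526 nt. Tanc2 had 19, 65.3 and 17.9 CPM in anti-NK1.1 libraries 1 to 3, against 47.7, 42 and 98.9 CPM in isotype libraries 1 to 3, the same order of libraries as Abca1 within each group.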

How the data were processed

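The submitters' processing notes name STAR 2.5.3a and DESeq2 1.1, among other tools, and build mm10. How reads were counted, on which annotation and with which strand setting, is not given in the sources used here. What the authors deposited is 1 table, called normalized, whose values are whole-number read counts with unequal totals. Its 26 rows with a date as symbol were left out. Reads in no feature stayed out of library sizes (53.3% to 57.4% of gene, no-feature and ambiguous counts together).

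Genes passing filterByExpr (14520) were scaled by TMM and tested two-sided with edgeR 4.0.16 in R 4.3.3 (quasi-likelihood, group as the only term, Benjamini-Hochberg over all genes, threshold 0.05). SE is the log2 change over the square root of F. The common biological coefficient of variation was 0.64. No libraries of a group matched within sampling noise (chi-square per degree of freedom 80.5 or more). Transcript lengths (GENCODE M21, GRCm38) covered 99.1% of tested genes. DESeq2 1.42.0 was an alternative, with those named under the processing heading. The design's normalized-value branch was not needed.

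Members and lists were chosen with earlier results of these data known. Named genes are the members, Rxra, defining markers, the 2 of smallest p per list, and the 3 most like Apoe and Abca1 in pattern. Clu, Apoc1, Apoc4, Srebf1, Mylip, Lpcat3, Plin2, Osbpl11, Mertk and Acsl1 were named after their values were seen, and Gfap and Cd163 for being at 0 in a library.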

Additional observations from a re-analysis of the deposited data

How the results depend on the processing

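Across 15 alternatives the log2 change of Apoe stayed above 0 (0.82 to 1.49), that of Abca1 below 0 (-1.7 to -0.02) and that of Abcg1 above 0 (0.06 to 0.56). Apoe had 0.82 with the length and GC correction, 0.82 with that correction and the replicate block, and 0.98 with the trend from genes of at least 10 CPM. That trend gave 0.56 for Abcg1, and anti-NK1.1 2 alone gave -0.02 for Abca1; the causes were not tested. Leaving out 1 library gave 1.17 to 1.49 for Apoe, -1.7 to -0.42 for Abca1 and 0.06 to 0.24 for Abcg1. Signs of Nr1h2, Soat1, Lipa and Npc1 turned in some settings. Leaving out 1 library gave 0 to 129 edgeR calls over all genes, and 0 to 5 among the pathway lists. The highest of both came without anti-NK1.1 2 (12 higher and 117 lower), with Apod higher and Abca9, Osbpl11, Mertk and Acsl1 lower, the last 3 named after their values were seen. DESeq2 called 83 genes and 1 pathway gene. The labels do not say whether the replicate numbers pair the samples. Correlations of deviations were 0.053, 0.03 and -0.004, and 3 of 6 libraries were closest to their own number. With 3 libraries a group, these values cannot decide it. The replicate block gave 0 calls over all genes, 0 in the lists, and log2 changes of 1.36, -1.04 and 0.15 for Apoe, Abca1 and Abcg1. With 3 libraries a group, an exact permutation test cannot go below 0.1. The lowest count of a member was 88, for Nr1h3 in isotype 2. Over the 15 alternatives the median log2 change of the lists was 0.42 to 1.05 for lipoproteins, 0.07 to 0.63 for the genes beside Apoe, -0.59 to -0.02 for LXR partners, -0.53 to -0.11 for oxysterol genes and -0.33 to -0.01 for lysosomal sterol transport. It changed sign for lipoprotein receptors (-0.28 to 0.39), other ABC transporters (-0.14 to 0.64), LXR targets (-0.02 to 0.28) and storage genes (-0.21 to 0.15).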
